A study of Saccharomyces cerevisiae with 5 samples.

Results

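The cell wall glucanases and glucan-remodelling enzymes are 10 genes that encode secreted enzymes which cut, extend and cross-link the glucan of the wall of the budding yeast Saccharomyces cerevisiae. They were chosen by gene symbol in the annotation of the array spots: BGL2, SCW4, SCW10, SCW11, EXG1, EXG2, GAS1, GAS5, CRH1 and UTR2, which are 10 of the 5583 genes on the arrays. The choice was made with the ratios of these same arrays known, among them the position of BGL2, the presence of values and the agreement of signs. All ratios of the members are therefore a description, and fitted p-values beside them support nothing about the set.

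The yeast cell wall is a mesh of glucan chains to which chitin and mannoproteins are attached. The exo-glucanases trim glucan, and enzymes of the BGL2 family cut it, with Bgl2 itself also a glucanosyltransferase. The Gas proteins lengthen glucan by joining its chains end to end, and the Crh proteins link chitin to glucan. The mRNAs of these enzymes are made in the nucleus, exported and translated on the endoplasmic reticulum. Yra1, the protein that was purified here, is an RNA-binding adaptor that helps to hand nuclear mRNA to the export receptor Mex67.

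Each of the 5 arrays compared cDNA of RNA that co-purified with zz-tagged Yra1 (zzYra1 IP) with cDNA of RNA recovered through a bare zz tag (zz IP), per the labels. The zz tag is an affinity tag, and the zz IP is the control for RNA that binds without Yra1. The sources used here do not give the strain, the promoter of the tagged gene or the culture conditions. Channel 2 held the zzYra1 IP on arrays 1, 2 and 5, and channel 1 held it on arrays 3 and 4. The titles of arrays 4 and 5 give what reads as the same day, and those of the other arrays each a day of their own. A slide number of 1 is recorded for arrays 1 to 4 and of 2 for array 5. The scan number is 5 for arrays 1 and 3, and 3 for arrays 2, 4 and 5. Nothing says that the arrays came from separate cultures, so errors and p-values cover the variation among these hybridisations only, and that variation may be technical.

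Values are log2 ratios of the channels, averaged where a gene has several spots and given as the distance from the median gene of the array. A value of 1 thus lies 2-fold above that median gene. Which immunoprecipitate was the numerator is not given, so the sign says nothing about which one held more of an RNA. Results over several arrays are given in both readings. In the channel reading the same channel is the numerator throughout, and the signs of arrays 3 and 4 are turned. In the deposited-sign reading the values are taken as they stand. Between 1099 and 5448 genes were measured per array, and 725 had a value on at least 4 of the 5. Spots without a value are missing for reasons that are not given. The gene of the purified protein, YRA1, had a value on array 3 alone (0.63), so it gives no check of the labels over the arrays. Array 4 had the widest spread over spots (SD of 2.51 log2 units), against 0.96 to 1.17 on the others.

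The members were measured unevenly. Array 3 had values for 10 of 10 members, where 97.6% of all its genes had one. Array 1 measured 7 of 10 (44.3% of all its genes) and array 2 measured 6 of 10 (51.1%). The tables of arrays 4 and 5 held no spot of GAS1. Array 4 measured 4 of the other 9 members (23.9% of all its genes) and array 5 measured 2 of 9 (19.8%). BGL2 was the single member with a value on all 5 arrays. SCW4 and GAS5 had values on 4, SCW11, EXG1 and UTR2 on 3, SCW10, EXG2 and GAS1 on 2, and CRH1 on 1.

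**Figure D1:**
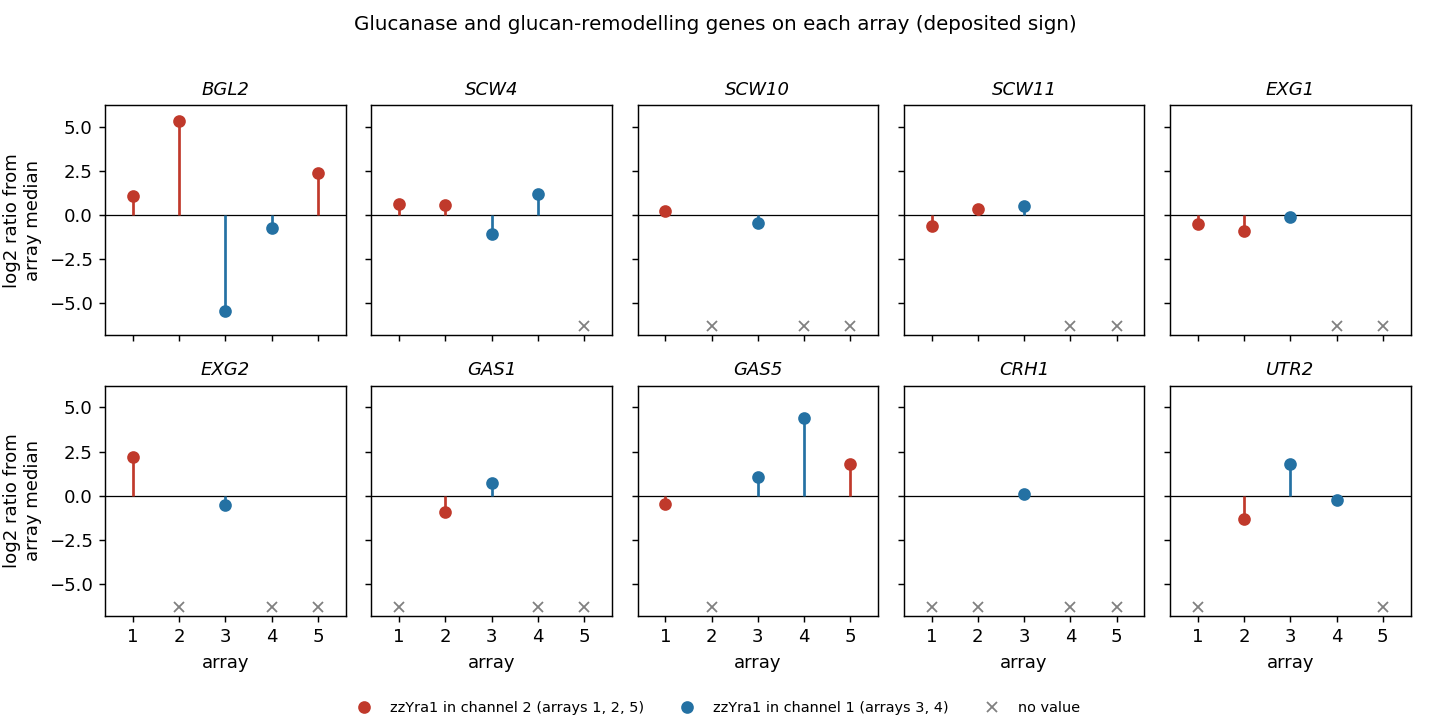
Each panel is a member, with the array on the x axis and the log2 ratio from the array median, in deposited sign, on the y axis. Colour gives the channel of the zzYra1 IP and a cross marks an array without a value. BGL2 lies above the median on arrays 1, 2 and 5 and below it on arrays 3 and 4, while most other values lie within about 2 units of it.

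BGL2 (YGR282C) encodes an abundant glucanosyltransferase of the wall. Its values were 1.09 on array 1, 5.32 on array 2, -5.41 on array 3, -0.72 on array 4 and 2.38 on array 5. The arrays with zzYra1 in channel 2 were all above the median and those with zzYra1 in channel 1 both below it, so the groups of arrays did not overlap, which held for 36 of the 146 genes with a value on every array (24.7%). On array 2 BGL2 was the highest of 2852 measured genes, with the next at 4.86. On array 3 it was the lowest of 5448, with the next at -4.64. These are the opposite ends of arrays with opposite orientation. On array 5 it ranked 35 of 1099, with 3.10% of genes higher, and on array 1 it ranked 329 of 2476, with 13.3% higher. On array 4 it lay among the bulk of the genes, with 38.9% of them lower.

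On arrays 1 to 3 the spots around BGL2 did not share its values. It has 1 spot on arrays 1 to 3, and the median of the measured spots within 2 positions of it lay at 0.13 on array 1 (11 spots), 0.84 on array 2 (5 spots) and -0.07 on array 3 (21 spots). Set against those neighbours and centred again on the median gene of the array, BGL2 lay at 0.95, 4.48 and -5.35. On arrays 4 and 5 it has 2 adjacent spots, and too few of the spots around them had a value for this check. Those of array 5 lay at 2.31 and 2.45, which is 0.13 apart, where the median pair of adjacent spots of a gene differed by 0.28 (737 pairs). On array 4 only 1 of the 2 spots had a value.

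**Figure D2:**
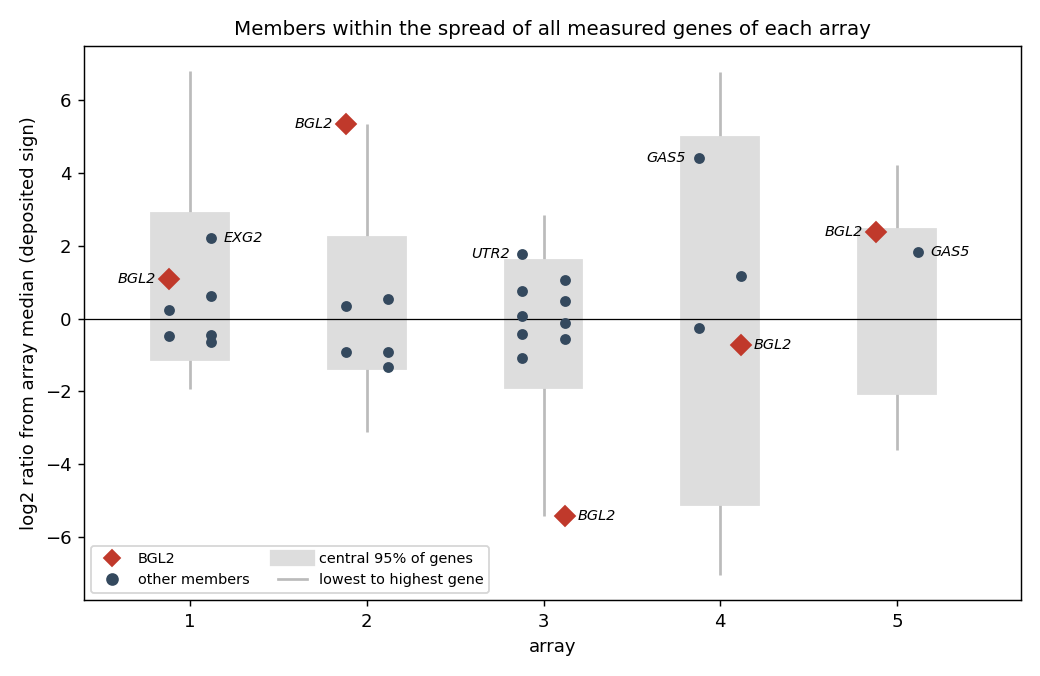
The x axis is the array and the y axis the log2 ratio from the array median in deposited sign. Points are members, with BGL2 and any member beyond 1.5 units named, grey boxes span the central 95% of all measured genes and lines the lowest to the highest gene. BGL2 sits at the upper end on array 2 and at the lower end on array 3.

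The relatives of BGL2 had gene values of between -1.07 and 1.16. SCW4 (YGR279C), a soluble wall protein of the same glucanase family, had values of 0.62, 0.55, -1.07 and 1.16 on arrays 1 to 4. It was above the median on arrays 1, 2 and 4 and below it on array 3, so that array 4 breaks the pattern of BGL2. Its adjacent spots on array 4 lay at 1.35 and 0.98. SCW10 (YMR305C), its close paralog, had 0.25 on array 1 and -0.43 on array 3. SCW11 (YGL028C), a daughter-cell glucanase that acts in cell separation, had -0.63, 0.34 and 0.48 on arrays 1 to 3. Its 2 spots on array 3, which lie apart on the slide, read -0.32 and 1.29. That gap of 1.60 exceeded the median gap of 1.03 between separate spots of a gene on array 3 (1034 pairs) and stayed under their 90th percentile of 2.47.

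The exo-glucanases differed from each other on array 1. EXG1 (YLR300W), the major secreted exo-glucanase, had -0.48, -0.90 and -0.13 on arrays 1 to 3 and so lay below the median wherever it was measured. The value of array 3 is the mean of spots at 0.73 and -0.99, which lie 1.72 apart, and the neighbours of the lower spot had a median of -0.90. EXG2 (YDR261C), an exo-glucanase anchored at the cell surface, had 2.20 on array 1 and -0.55 on array 3. On array 1 it ranked 98 of 2476 genes, and only 1 of its neighbouring spots had a value there. On array 3 its neighbours had a median of -0.57, next to its own -0.55.

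Of the Gas proteins, GAS5 had the larger values. GAS1 (YMR307W), the main glucanosyltransferase of growing cells, had -0.91 on array 2 and 0.75 on array 3. These lie on opposite sides of the median, and on array 2 GAS1 ranked 286 from the lowest of 2852 genes. GAS5 (YOL030W), a glucanosyltransferase of the same family, had -0.45, 1.07, 4.40 and 1.82 on arrays 1, 3, 4 and 5. It was above the median on 3 of 4 arrays, among them both orientations. On array 4 it ranked 62 of 1326 genes, and the 8 measured spots around it had a median of 3.09. Set against them, with the array centred again, it lay at 1.40. On array 5 its adjacent spots read 2.16 and 1.48, and none of the spots around them had a value.

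The chitin-to-glucan transglycosylases were the least often measured. CRH1 (YGR189C) had a single value, 0.07 on array 3, close to the median gene. UTR2 (YEL040W), also called CRH2, had -1.34, 1.78 and -0.26 on arrays 2, 3 and 4. It ranked 91 from the lowest of 2852 genes on array 2 and 79 from the highest of 5448 on array 3, which is the reverse of BGL2 on the same arrays. The spots around it had medians of -0.11 and 0.07 there, so that its own values stood off from them.

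Taken by array, members lay on both sides. Over 1 unit above the median were BGL2 and EXG2 on array 1 (2 of 7 members measured, where 14.6% of all genes were), BGL2 on array 2 (1 of 6, 12.8%), GAS5 and UTR2 on array 3 (2 of 10, 12.4%), SCW4 and GAS5 on array 4 (2 of 4, 32.7%) and BGL2 and GAS5 on array 5 (2 of 2, 20.8%). Over 1 unit below it were UTR2 on array 2 (1 of 6, 8.13%) and BGL2 and SCW4 on array 3 (2 of 10, 13.4%). No member was so low on array 1 (4.20% of all genes), array 4 (35.1%) or array 5 (15.4%). The median of the members was 0.25, -0.28, -0.03, 0.45 and 2.10 on arrays 1 to 5, the last from 2 genes. With each spot set against its neighbours, 0 of 6 members lay over 1 unit above the median on array 1, and 1 of 10 lay so high and 1 of 10 so low on array 3. On array 1 BGL2 moved from 1.09 to 0.95, and EXG2 had no value left. On array 3 GAS5 moved from 1.07 to 0.53 and SCW4 from -1.07 to -0.58. The share of all genes beyond 1 unit was not computed in that setting, so nothing is read from these counts.

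Signs agreed for more members in the channel reading, which is a description because the signs were known when the members were chosen. Of the 9 members with at least 2 values, 4 had the same turned sign wherever they were measured. All 9 were measured in both orientations, so a member that agreed in either reading could not agree in the other. BGL2 was positive on 5 of 5 arrays, as were 9 of 146 genes with 5 values on one side or the other (6.16%). Its value on array 4 before turning was -0.72, and 0.81 without centring, so the 5 of 5 depends on the centring. SCW10 and EXG2 were positive and GAS1 negative on 2 of 2 arrays, where 47.4% of the 2190 genes with 2 values agreed. None of the 3 members with 3 values did (26.0% of such genes), and neither SCW4 nor GAS5 did with 4 (11.7%). In the deposited-sign reading EXG1 alone agreed, on 3 of 3 arrays (22.7% of genes with 3 values). The share of agreeing genes was 52.9%, 12.1% and 1.37% with 2, 4 and 5 values in that reading, and none of the other members agreed. These results depend on the centring too. Without it EXG1 had 2.21, -2.04 and 0.02 on arrays 1 to 3 and no longer agreed. GAS5 was then positive wherever measured and agreed in the deposited-sign reading, and UTR2 agreed in the channel reading. The share of all genes was not computed without centring. With each spot set against its neighbours, 8 members had at least 2 values left. The count was then 7 for the channel reading and 0 for the deposited-sign reading. SCW4 and UTR2 had lost their value on array 4, and GAS5 its value on array 5, for want of measured spots around them. Those were the values that had disagreed in the channel reading. EXG1 changed from the deposited-sign to the channel reading, with -0.13 on array 3 as reported and 0.23 against its neighbours. In that setting 4 of the 7 had 2 values, where 49.5% of all genes agreed, and 3 had 3 values, where 25.6% did. In the deposited-sign reading the shares were 50.9% and 22.2%.

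Only BGL2, SCW4 and GAS5 had enough values for the fit over all 5 arrays, which took genes with at least 4. It was made in limma, a linear model with a shared estimate of the spread, with the orientation as a term, over 725 genes. In the channel reading 0 of these 3 members passed an adjusted p of 0.05, as did 0 of 725 genes (0%). At an unadjusted p under 0.05 it was 1 of 3, BGL2, against 19 of 725 genes (2.62%). In the deposited-sign reading 0 of 3 members and 0% of genes passed, and at the unadjusted p it was 1 of 3, GAS5, against 25 of 725 (3.45%). Since these ratios chose the members, nothing is read from those shares.

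In the channel reading BGL2 was fitted at 3.00 ± 0.80 log2 units (SE, n = 5 arrays; 95% interval 1.20 to 4.79; limma adjusted p = 0.905). In the deposited-sign reading it was fitted at -0.07 ± 0.80, because the arrays of opposite orientation cancel. The channel-reading value rested on arrays 2 and 3. Without both, also a setting chosen after seeing the data, it was 1.23 ± 0.52 (limma adjusted p = 0.365), and without array 3 alone 1.82 (adjusted p = 0.0399), in a fit in which 68 of 602 genes passed. Without array 4 it was 4.17 (limma adjusted p = 0.000783), in a fit in which 2 of 1811 genes passed. In a fit without array 3 or 4 the other is alone in its orientation and is assumed to vary like the rest, and so is array 3 in a fit of arrays 1 to 3. With every array brought to equal spread before 1 was left out, a setting chosen after seeing the data, BGL2 did not pass without array 3 (1.69, 0 of 602 genes passed) or without array 4 (4.27, 0 of 1811 genes passed). Arrays 1 to 3 alone gave 4.31, or 3.94 as a plain mean of turned values (limma adjusted p = 0.729, where 0 of 1282 genes passed). Arrays 4 and 5 alone gave 1.55 ± 1.02 (limma adjusted p = 0.950, where 0 of 546 genes passed). Over the settings with at least 2 arrays in each orientation, the limma adjusted p of BGL2 in the channel reading varied widely. It ran from 1.27e-08, scaled and without array 1 (3.43, where 3 of 1206 genes passed), to 0.9996, without centring (3.09). In both fits members with as many values shared 1 standard error (0.61 for GAS5, SCW4 and UTR2 in the first). The p-value thus rests on a spread pooled over genes, not on that of BGL2. These ratios chose BGL2, so nothing is read from its calls.

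**Figure D3:**
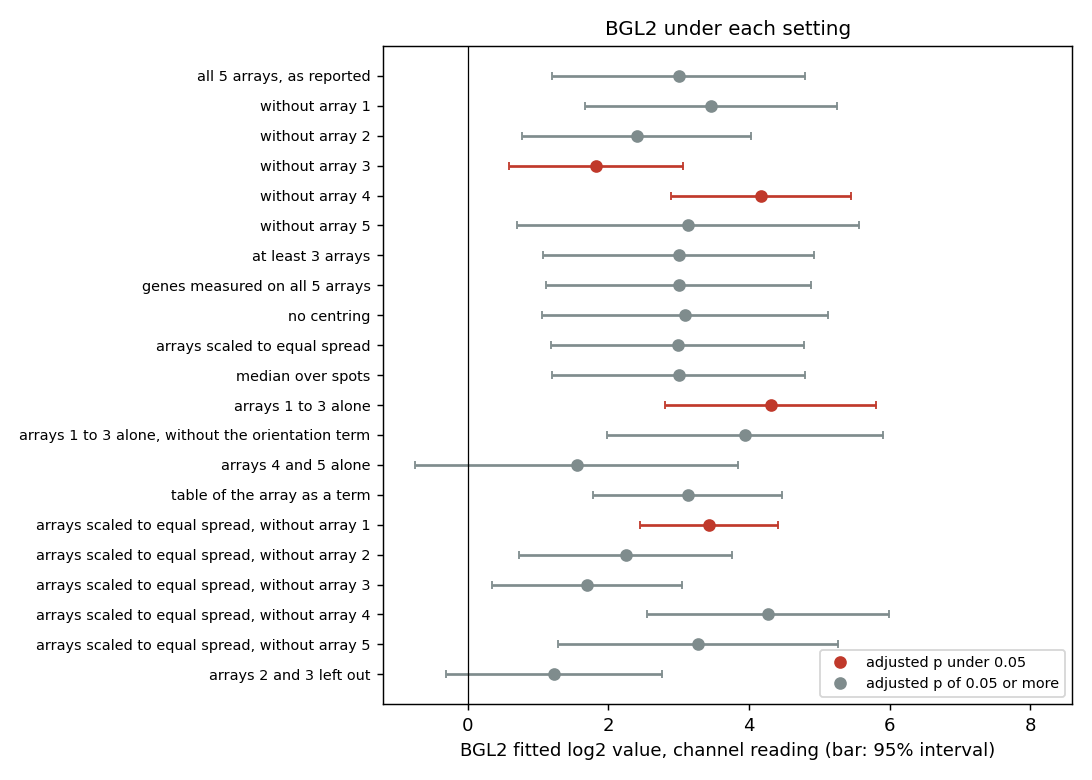
The x axis is the fitted log2 value of BGL2 in the channel reading with its 95% interval, and each line is a setting of the fit. Red points have an adjusted p under 0.05. The values run from 1.23 without arrays 2 and 3 to 4.31 on arrays 1 to 3 alone, and the intervals of the fits without arrays 2 and 3 and on arrays 4 and 5 alone reach below 0.

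GAS5 went the other way in the channel reading, at -1.02 ± 0.70 (95% interval -2.62 to 0.57; limma adjusted p = 0.905), and stood at 1.71 ± 0.70 in the deposited-sign reading (0.11 to 3.31; limma adjusted p = 0.903). Without array 4 they were -0.19 and 0.88. With the arrays scaled to equal spread they were -0.43 and 0.90, and -0.30 and 0.77 without array 4 as well. Without centring they were -0.39 and 3.18. Without array 3 the deposited-sign value was 2.54 (limma adjusted p = 0.00381), where 80 of 602 genes passed, and with scaled arrays it was 1.03, where 0 of 602 did. Over all settings the limma adjusted p of that value ran from 0.00381 to 0.999. SCW4 was near 0 in both readings, at 0.27 ± 0.57 (limma adjusted p = 0.936) and 0.31 ± 0.57 (0.944).

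**Figure D4:**
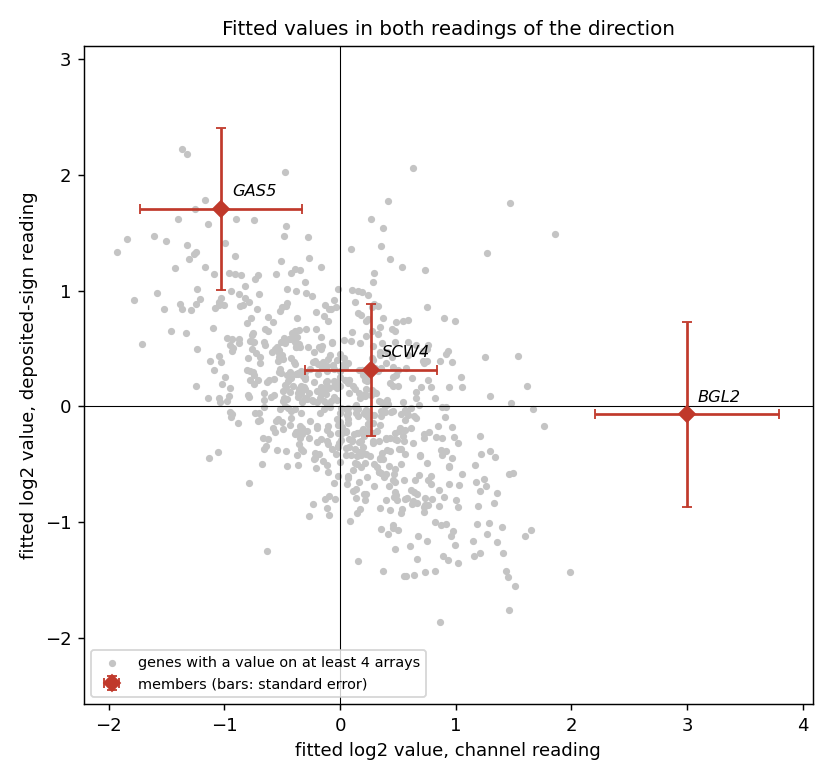
Each grey point is a gene with a value on at least 4 arrays, placed by its fitted log2 value in the channel reading (x axis) and the deposited-sign reading (y axis). Diamonds are the 3 fitted members with standard errors. BGL2, at 3.00 and -0.07, lies farther to the right than any other gene.

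Arrays of a single orientation need no reading of the direction. On arrays 1, 2 and 5 BGL2 was the sole member measured on all 3, at 2.93 ± 0.86 (limma adjusted p = 0.821). There 0% of 281 genes passed and 2.14% had an unadjusted p under 0.05. On arrays 3 and 4 it was at -3.06 ± 1.36 (limma adjusted p = 0.958), where 0% of 1300 genes passed and 5.00% had an unadjusted p under 0.05. GAS5 lay there at 2.73, UTR2 at 0.76 and SCW4 at 0.05, each with a standard error of 1.36. With the arrays scaled to equal spread, BGL2 on arrays 3 and 4 was at -2.84 ± 0.68 and passed (limma adjusted p = 0.0369), the 1 call among 1300 genes. In each setting BGL2, GAS5, UTR2 and SCW4 had the same standard error there, pooled over genes. It does not measure the gap between the values of BGL2, -5.41 on array 3 and -0.72 on array 4.

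Some members are near neighbours in the genome. In the R64 gene table SCW4 and BGL2 have 2 genes between them (PXR1 and YOR1), and SCW10 and GAS1 have 1 (FKS3). The first pair shared its side of the median on arrays 1, 2 and 3 and lay on opposite sides on array 4. The second pair was measured together on array 3 alone, at -0.43 and 0.75. No member overlaps another gene in that table. BGL2 is the shortest of the 10 genes, with 942 bases, and EXG2 the longest, with 1689.

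The other wall genes were taken from 5 lists, and none of their members passed in either reading of the fit over 5 arrays (limma adjusted p of 0.903 or more). Relatives of the enzymes outside the set, such as other Gas, Crh and SUN family genes, had 2 of 16 genes tested, with medians of 0.04 in the channel reading and -0.06 in the deposited-sign reading. They were UTH1, a SUN family wall protein (-0.38 ± 0.58 and 0.52 ± 0.58), and ECM33, an anchored wall glycoprotein (0.46 ± 0.71 and -0.64 ± 0.71). Glucan synthesis had 3 of 16 tested, with medians of -0.18 and 0.12. Its catalytic subunit gene FKS1 lay at -0.26 ± 0.54 in the channel reading, SMI1, a regulator of glucan synthesis, at -0.14 ± 0.43, and KRE5, needed for glucan assembly, at 0.51 ± 0.60 in the deposited-sign reading. Over all 725 genes the medians were 0.06 and 0.07.

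Chitin genes had 3 of 16 tested, with medians of 0.59 and 0.45. The chitin synthase gene CHS3 had values of 1.56, 3.58, -1.65, -2.24 and -3.44 on arrays 1 to 5, and was fitted at 1.26 ± 0.88 in the channel reading. It shared the sides of BGL2 on arrays 1 to 4 and lay opposite on array 5. CHS5, which helps to carry Chs3 to the surface, was at -0.74 ± 0.75 and 1.61 ± 0.75. Wall mannoproteins had 10 of 22 tested, 5 of them positive in each reading, with medians of 0.04 and -0.08. CIS3, a wall mannoprotein, lay at -1.29 ± 0.47 in the channel reading, CWP2 at 0.64 ± 0.60, and CCW14 at -0.94 ± 0.50 in the deposited-sign reading. Wall integrity signalling had 3 of 17 tested, with medians of -0.53 and 0.49. The regulator SWI6 was at -0.80 ± 0.74 and 0.72 ± 0.74, the sensor gene WSC2 at -0.53 ± 0.51 in the channel reading and the sensor gene MTL1 at -0.74 ± 0.67 in the deposited-sign reading.

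The genes with the pattern most like that of BGL2 were far from it, which restates its extreme values on arrays 2 and 3. Among the 146 genes with a value on every array, the nearest by Euclidean distance over the 5 ratios were EDC2 (4.40 log2 units away), RPL21B (5.07) and TIR2 (6.28). The median gene had its nearest neighbour at 1.15. EDC2 had 0.70, 4.44, -3.23, 0.81 and -0.98 on arrays 1 to 5. It shared the high value of array 2 and the low value of array 3 and differed on arrays 4 and 5. RPL21B had 3.67 on array 2 and -2.32 on array 3, and TIR2 0.95 and -3.51.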

How the data were processed

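The authors deposited 1 log10 ratio per spot and array, in a table of 7680 spots for arrays 1 to 3 and one of 12800 spots for arrays 4 and 5; all columns were used. The scale is not stated. Taken as log10, 25.25% to 94.5% of 400 values drawn per array equalled a whole-number fraction whose denominator did not exceed 3000 (within 1e-09), against at most 1.75% for log2 or natural logarithms. The sources used here do not give the scanner, background correction, filters, dyes or numerator, the columns were not centred, and no intensities were used. The number of arrays limits the precision.

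Ratios were multiplied by 3.32 to log2, averaged per gene and array, and shifted so that the median gene of an array is 0. This removes a shift shared by most genes. No loess or quantile step was applied. Symbols came from the platform annotation, updated through gene identifiers to R64, which matched 5578 of 5583 and 5534 of 5539 genes. Genes with values on at least 4 arrays were fitted in limma 3.58.1 (R 4.3.3), tested on simulated data, with orientation as a term and Benjamini-Hochberg adjustment over all genes fitted. Both readings are coefficients of that model. For neighbour values, rows of 20 spots were assumed, with a reach of 2 and at least 5 measured spots. The median of the neighbours was subtracted from each spot, spots were averaged per gene, and each array was centred again on its median gene. The row length was inferred from the deposited values, and all neighbour values depend on it.

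The members and lists were chosen with earlier results of these data known. Genes named are the members, YRA1, the 2 genes of each list with the smallest p in each reading, and the 3 nearest to BGL2. Alternatives tried were each array left out, other filters, centring, scaling and spot averages, and each table alone.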

Additional observations from a re-analysis of the deposited data

Results flagged for a closer look

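The spread of array 4, an SD of 2.51 log2 units over spots, lay far from the other 4 arrays. Of 9 sets of values checked in this way it was the 1 that stood out, where chance gives 0.45. The values of GAS5 (4.40), SCW4 (1.16), BGL2 (-0.72) and UTR2 (-0.26) on array 4 come from that array, and the part of its spread in them was not tested.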

How the results depend on the processing

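The counts of members and genes called were 0 in the fit of 5 arrays as reported. Leaving out an array, with or without scaling to equal spread, gave 0 to 1 members in either reading, and 0 to 68 genes in the channel reading and 0 to 80 in the other. Scaled, BGL2 passed without array 1 (3.43), in a fit in which 3 of 1206 genes passed. The scaled arrays 3 and 4 gave 1 member, BGL2, the 1 call among 1300 genes. In both fits the standard error was pooled over genes and does not measure the spread of BGL2. The table as a term gave 12 of 725 genes in the deposited-sign reading, none of them a member. Arrays 1 to 3 alone gave BGL2 at 4.31 in the channel reading, with array 3 alone in its orientation. These ratios chose the members, so nothing is read from the calls. Set against neighbours, members over 1 unit above the median were 0 on array 1, 1 on array 3 and 1 on array 4 (of 1 left), and 1 was below on array 3. Lost values and small moves across the cut went into these counts, and no share over all genes was computed beside them. Signs agreed for 7 and 0 of 8 members (49.5% and 50.9% of genes with 2 values, 25.6% and 22.2% with 3). For SCW4, UTR2 and GAS5 the value that had disagreed in the channel reading was lost there. No member had enough values for a fit in that setting. Without centring, BGL2 and EXG1 lost their agreement of signs, while GAS5 agreed in the deposited-sign reading and UTR2 in the channel reading.

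BGL2 near 0 in the deposited-sign reading turned positive at 0.87 without centring, 0.15 with scaling, 0.83 on arrays 4 and 5, 0.33 on arrays 1 to 3 as a plain mean, 0.062 with the table term, 0.51 without arrays 2 and 3, and with 1 array left out to 0.39 (array 1), 1.11 (array 3), 0.07 (array 5) and, scaled, 0.59, 1.44 and 0.44 (arrays 1, 3 and 5); the lowest was -1.24 (array 4). SCW4 turned to -0.24 on arrays 1 to 3, to -0.33 on arrays 3 and 4 scaled, and ranged from -0.29 to 0.88 (channel) and -0.24 to 0.87 with 1 array left out (-0.19 scaled without array 4). GAS5 in the channel reading ranged from -1.86 to 0.087 (scaled) with 1 array left out. The causes were not tested. Scaling with an array left out, the table term, the plain mean, the fit without arrays 2 and 3 and signs against neighbours were added after seeing the data. A random block for arrays 4 and 5, of the same day in the titles, was not run, because a single pair gave a correlation estimate for 0 of 146 genes. No paired analysis was possible because the arrays form 1 group.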
